A study of Arabidopsis thaliana with 18 samples.

Results

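Seedlings of the Arabidopsis thaliana bru1 mutant and of the Columbia wild type (Col) were compared 52 h after a heat acclimation, by transcript levels on Affymetrix ATH1 arrays. The comparison takes the 3 bru1 arrays and the 3 Col arrays labelled 52 h, 6 of the 18 arrays of the series, and the log2 difference of the group means for each of 22746 probe sets out of 22810, after 64 Affymetrix control probe sets were left out. Both groups were heated as 4-d-old seedlings, first 1 h at 37 °C, then 45 min at 44 °C, with 1.5 h at 23 °C between, and the treatment began 6 h after dawn. The growth conditions were the same for both, GM medium with 16 h of light at 23 °C and 8 h of dark at 21 °C. The other 12 arrays, in groups of 3, hold bru1 and Col seedlings at 4 h after the same treatment and untreated bru1 and Col seedlings collected at the 4 h time point. A difference at 52 h set against one in untreated seedlings therefore also spans seedling age. The labels name no bru1 allele and no hybridisation run, so genotype and any array run tied to it cannot be told apart. The replicates are called biological in the labels, and their number limits the precision.

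BRU1 is the Arabidopsis TONSOKU protein, which acts at replication forks and in the repair of broken ones, and mutants of the gene are known for stem defects, for sensitivity to DNA damage and for the release of silenced genes. Heat acclimation induces heat shock proteins, chaperones that bind unfolded proteins. In heat stress memory some of these transcripts and proteins persist for days after the heat, and the series title names BRU1 as required for it. The BRU1 transcript itself was not analysed here, because the gene has no probe set of its own in the naming table used, so the genotype labels were not checked through it.

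The arrays were alike in scale, with medians of 6.48 to 6.55 on the log2 scale over all 18. An array correlated on average at 0.986 to 0.996 with the others of its group, and the Col 52 h array of replicate 3 was the lowest. The label of whole seedlings was checked with markers. The 7 measured genes of photosynthesis had group means of 10.10 to 13.42 in bru1 and 9.75 to 13.29 in Col, and PYK10, an abundant root beta-glucosidase, had means of 13.01 in bru1 and 13.42 in Col. The meristem gene CLV3 was not shown above background, with means of 3.49 in bru1 and 3.50 in Col, below the limit of 4.39 set here from the lower quartiles of the arrays. The 3′ minus 5′ signal of actin, a sign of RNA integrity, averaged 1.46 ± 0.08 in bru1 and 1.65 ± 0.08 in Col (SD, n = 3 each), and the difference of -0.19 gave an exact permutation p of 0.1, the lowest possible with 3 arrays a group. For GAPDH that difference was 0.03 (exact permutation p = 0.7). The part of RNA integrity in the results was not tested.

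At 52 h, 2615 probe sets (11.5% of 22746) differed between bru1 and Col at an adjusted p under 0.05 in limma, 1328 of them higher in bru1 (5.84%) and 1287 lower (5.66%). Of these, 478 (2.1%) differed by at least 2-fold, 291 higher (1.28%) and 187 lower (0.822%). The median difference over all probe sets was -0.02 on the log2 scale and the median absolute difference was 0.152. Among the 13355 genes with a probe set of their own, 696 were higher and 755 lower. The 3 bru1 arrays all lay above or all below the 3 Col arrays for 5750 probe sets (25.3%). Late seed proteins, anthocyanin genes, root hair genes and genes in 9 runs of neighbouring loci were among those higher, and surface lipid and mitochondrial stress genes among those lower. Of the small heat shock protein and heat stress memory genes measured none passed the test. These are 11 and 4 genes, and with 11.5% of all probe sets called, their 0 calls do not show unchanged levels. The count of probe sets called was 1001 in a fit of the 6 arrays at 52 h alone and 8462 with array weights, and 1549 without bru1 replicate 1 and 1684 without bru1 replicate 3. The gene lists used below were chosen or extended after values of these arrays were seen, so they describe the differences and give no independent support.

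Heat stress memory genes were not called at 52 h. Of 12 genes on the list 4 had a probe set of their own, and with limma 0 passed the test (0 also at an unadjusted p under 0.05). Of all probe sets 11.5% were called, so 0 calls do not show unchanged levels of these 4 genes. Their median difference was -0.38, against -0.02 for all probe sets, and it was -0.09 without Col replicate 3, -0.07 without bru1 replicate 3 and -0.69 without bru1 replicate 2. HSA32, which extends acquired heat tolerance, had levels of 8.12, 8.70 and 7.52 in bru1, against 8.63, 8.14 and 8.88 in Col, a difference of -0.44 ± 0.23 (SE) with an adjusted p of 0.24 in limma. The groups overlap, and HSA32 was called lower without the bru1 array of replicate 2 and with array weights (adjusted p = 0.0092). The small heat shock protein ATHSP22.0 had levels of 10.02, 10.80 and 9.87 in bru1, against 9.50, 9.77 and 10.84 in Col. AT1G53540, a class I small heat shock protein, had 9.66, 10.44 and 8.42 in bru1, against 10.02, 9.23 and 11.27 in Col. AT5G37670, a peroxisomal small heat shock protein, had 9.84, 10.55 and 9.26 in bru1, against 10.06, 9.83 and 10.71 in Col. In these 3 genes Col replicate 3 held the highest level, and the spread within each genotype was larger than the gap between the means of 0.19, -0.67 and -0.32. With array weights ATHSP22.0 was called higher (adjusted p = 0.0245).

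The 11 measured small heat shock proteins of 20 listed had a median difference of -0.36 (-0.10 without Col replicate 3, -0.13 without bru1 replicate 3). With 11.5% of all probe sets called, 0 calls among 11 genes do not show unchanged levels. In limma none passed the adjusted test and 1 had an unadjusted p under 0.05. This gene was AT5G51440, a mitochondrial small heat shock protein, at 7.20, 7.57 and 5.77 in bru1, against 7.89, 7.14 and 8.94 in Col. Its difference of -1.14 ± 0.39 had an adjusted p of 0.071, and it was called lower without Col replicate 2, without bru1 replicate 2 or with array weights (adjusted p = 0.00606). The median level of the list was 9.47, 9.83 and 8.42 in bru1, against 9.41, 8.98 and 10.46 in Col, so the lowest array was a bru1 array and the highest a Col array. AT1G52560 had a difference of -0.95 ± 0.49 (adjusted p = 0.25). AT1G54050 differed by -0.44, AT5G47600 by -0.37, AT4G21870 by -0.36, AT2G29500 by -0.21, AT2G19310 by -0.03 and AT5G54660 by 0.25, with adjusted p-values of 0.245 to 0.939.

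Of 11 measured larger chaperones and co-chaperones of 38 listed, 1 was lower (5.66% of all probe sets) and 0 higher (5.84%) in bru1, with a median of -0.10. The gene called was AT5G48570, the peptidyl-prolyl isomerase ROF2 that works with HSP90, at 8.99, 9.42 and 8.57 in bru1, against 9.45, 9.46 and 9.90 in Col. Its difference was -0.61 ± 0.16 with an adjusted p of 0.022, and the groups do not overlap. The call was lost without Col replicate 3, bru1 replicate 1 or bru1 replicate 3 and with the 6 arrays alone (adjusted p = 0.178). Fes1A, which guards cytosolic HSP70, had levels of 7.61, 8.10 and 7.21 in bru1, against 8.12, 7.94 and 9.40 in Col, with a difference of -0.85 (adjusted p = 0.18). The HSP70-HSP90 organising proteins Hop1, Hop2 and Hop3 differed by -0.29, -0.07 and -0.49, and Hop3 was called lower without Col replicate 2. The HSP70 genes AT3G09440 and Hsp70-2 differed by 0.02 and -0.15, the DNAJ-type genes AT2G20560, AT3G08910 and AT4G28480 by 0.53, 0.09 and -0.10, and the cyclophilin SQN by -0.03. None of these 10 genes passed the test, and with array weights AT2G20560 was called higher (adjusted p = 0.0483). In the unfolded protein response the membrane-bound factors BZIP28 and BZIP17 and the factor BZIP60 act. Of its 7 measured genes limma called 0 (0 unadjusted), beside 11.5% of all probe sets, with a median of 0.02.

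Many genes of late embryogenesis abundant (LEA) proteins were higher in bru1. These hydrophilic proteins build up in drying seeds and in stressed tissue. Of 35 measured genes of 51 listed, 13 were higher and 1 was lower, against 5.84% and 5.66% of all probe sets, and 8 of the 35 were not shown above background in either group. The median of the list was 0.20, against -0.02 over all probe sets. AT3G02480, a LEA-type gene, had levels of 10.73, 10.89 and 10.93 in bru1, against 7.17, 7.71 and 7.50 in Col. It had the largest rise at 52 h among genes with a probe set of their own and arrays that do not overlap, with a difference of 3.39 ± 0.24 (adjusted p = 8.2e-08), or 10.5-fold. LEA18 had 7.28, 7.83 and 7.60 in bru1, against 3.72, 4.47 and 5.56 in Col, a difference of 2.99 ± 0.31 (adjusted p = 4.9e-06).

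For 2 further LEA genes with large differences Col was not shown above background, so the differences are lower bounds. AT3G15670 had levels of 7.18, 7.55 and 7.29 in bru1, against 3.71, 3.95 and 4.82 in Col, with a measured difference of 3.18 ± 0.31. AT4G21020 had 6.37, 6.65 and 6.17 in bru1, against 3.86, 4.01 and 3.96 in Col, with a measured difference of 2.45 ± 0.22. In both, each bru1 array lay above every Col array. AT3G17520 had 7.39, 8.46 and 7.12 in bru1, against 4.96, 4.98 and 6.11 in Col (2.31, adjusted p = 0.00012) and LEA4-5 had 7.30, 8.38 and 7.11 in bru1, against 5.07, 5.23 and 6.18 in Col (2.11, adjusted p = 0.00055). AtLEA4-1 and AT3G53040 differed by 1.75 and 1.39. COR15A, a cold-induced chloroplast protein that protects membranes, differed by 1.44 (adjusted p = 0.0088). The gene on the lower side was the drought-induced DI21, at 8.46, 8.93 and 8.82 in bru1, against 9.10, 9.17 and 9.80 in Col, a difference of -0.62 ± 0.19 (adjusted p = 0.047). This call was lost without Col replicate 3, bru1 replicate 1 or bru1 replicate 3. The plot of LEA and seed reserve levels shows each array of the genes called higher.

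Seed reserve genes were higher as well, with 9 of 14 measured genes called higher (5.84% of all probe sets) and 0 lower (5.66%). The list held 33 genes, and its measured members had a median of 1.24. These genes serve the storage proteins, oil bodies and protein processing of the maturing seed. AT3G54940, a papain-type cysteine protease, had levels of 7.34, 8.00 and 7.77 in bru1, against 4.33, 4.43 and 4.85 in Col, a difference of 3.17 ± 0.18 (adjusted p = 9.5e-09). AT2G28490, a vicilin-like storage protein, had 6.27, 6.57 and 6.88 in bru1, against 3.96, 3.92 and 5.35 in Col (2.17 ± 0.31, adjusted p = 0.00015). AT1G04560, which encodes an AWPM-19-like membrane protein, had 6.79, 7.11 and 6.95 in bru1, against 4.56, 5.08 and 5.09 in Col (2.04 ± 0.21, adjusted p = 4.5e-06). The groups were apart in all 3 genes.

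AT4G36700, another cupin gene of that kind, varied more, with 8.70, 5.91 and 8.61 in bru1, against 4.46, 5.08 and 5.13 in Col. Its difference of 2.85 ± 0.76 (adjusted p = 0.02) lost its call without Col replicate 1, bru1 replicate 1 or bru1 replicate 3 and with the 6 arrays alone (adjusted p = 0.0564). The vacuolar processing enzymes BETA-VPE and DELTA-VPE, which mature storage proteins, differed by 1.72 and 1.19. The oleosins AT2G25890, AT3G01570 and OLEO3, coat proteins of oil bodies, differed by 1.65, 1.29 and 0.72. Col was not shown above background for DELTA-VPE and AT2G25890. ICL, the isocitrate lyase that turns stored oil into sugar in seedlings, had means of 8.77 in bru1 and 8.67 in Col, with an adjusted p of 0.91. In bulk seedlings more cells that express such genes and more RNA per cell cannot be told apart.

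**Figure D1:**
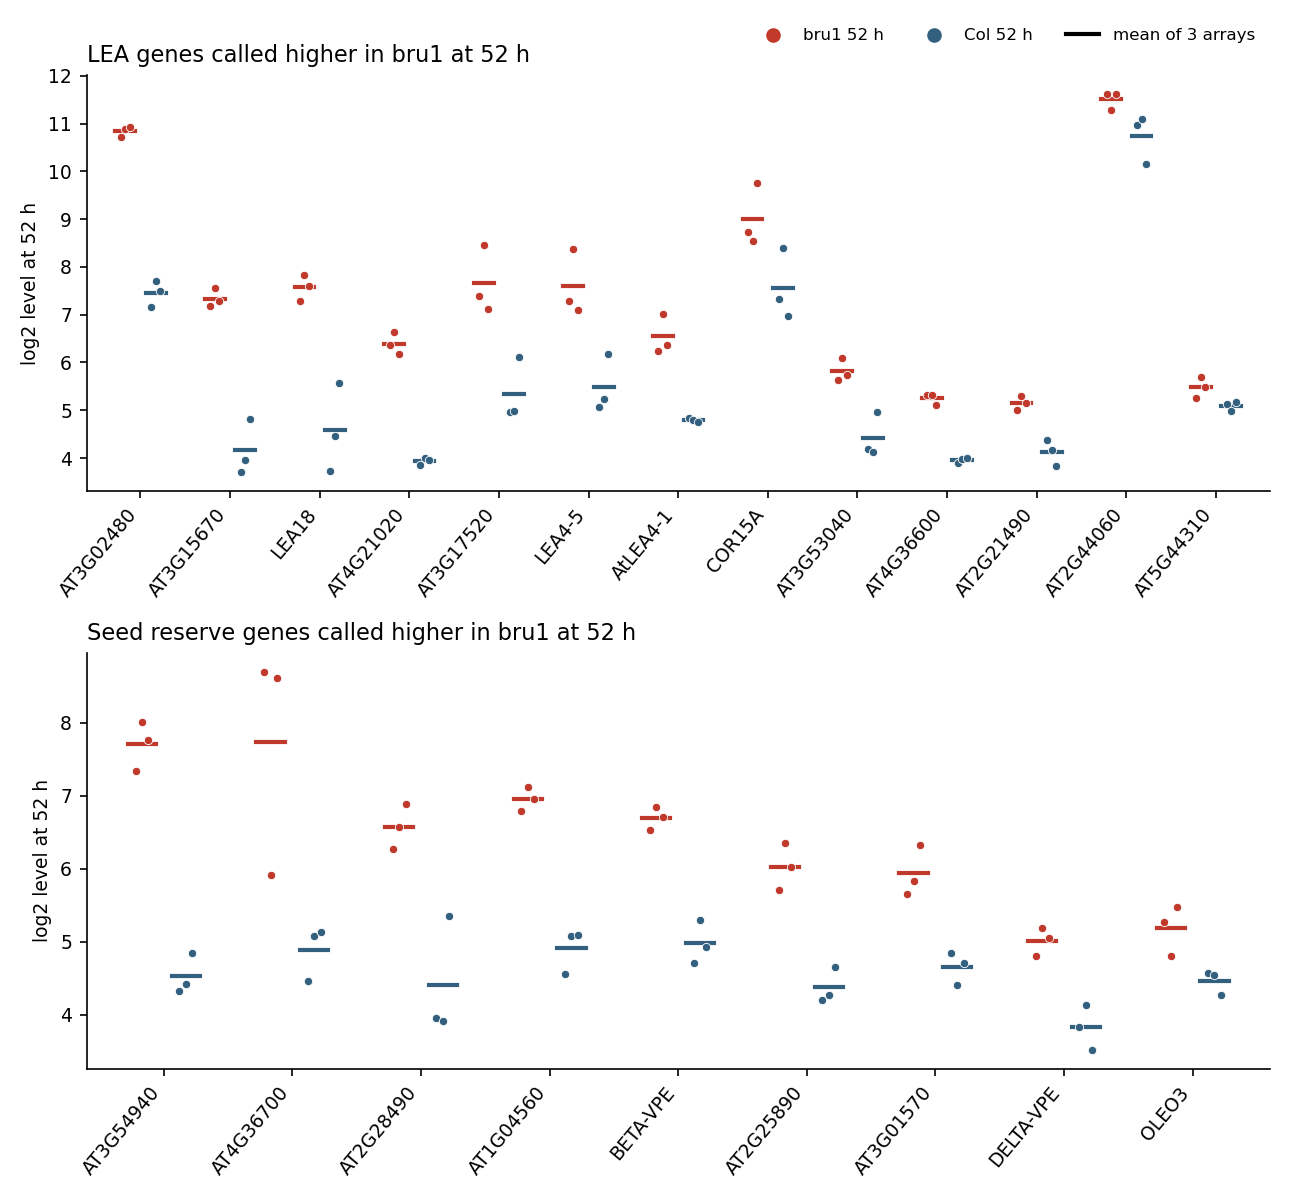
Log2 levels of LEA and seed reserve genes in each array at 52 h for the genes called higher in bru1 (bru1 in red, left of Col in blue, 1 point per array, bars for the mean of 3 arrays). AT3G02480 lies between 10.73 and 10.93 in bru1 and between 7.17 and 7.71 in Col, and for each gene drawn the 3 bru1 points lie above the 3 Col points.

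Members of both lists were also higher in bru1 without heat. Called higher were 10 LEA genes in untreated seedlings, 17 at 4 h and 13 at 52 h, beside shares of 5.24%, 6.45% and 5.84% of all probe sets, and 7, 7 and 9 of the seed reserve genes. The LEA median was 0.27 in untreated seedlings, 0.47 at 4 h and 0.20 at 52 h, and that of the seed reserve genes 0.99, 1.09 and 1.24. The 3 comparisons use separate arrays.

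**Figure D2:**
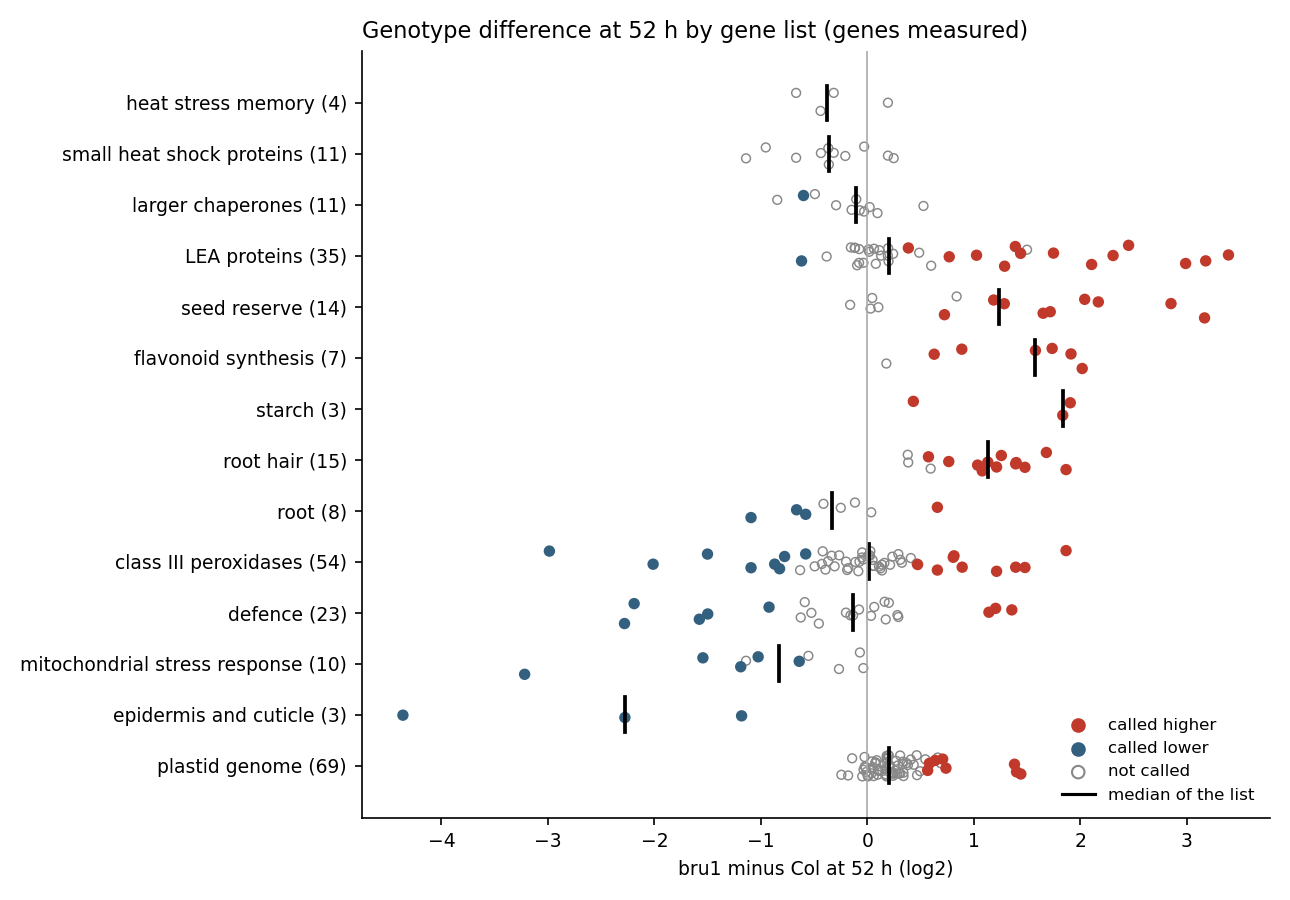
Log2 difference, bru1 minus Col, at 52 h for each measured gene of 14 lists, 1 point per gene, filled red where called higher and blue where called lower, with the list's median as a bar and the number of genes in brackets. The median lies at 1.58 for flavonoid genes and at -0.38 for heat stress memory genes, where no point is filled.

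Anthocyanin genes were higher in bru1 at 52 h. Anthocyanins are red flavonoid pigments that seedlings form under light, sugar and stress. Of 7 measured genes of 19 listed, 6 were higher (5.84% of all probe sets) and 0 lower (5.66%), with a median of 1.58. DFR, the dihydroflavonol reductase that commits the pathway to anthocyanins, had levels of 11.61, 11.16 and 11.84 in bru1, against 9.91, 10.85 and 7.80 in Col. Its difference was 2.02 ± 0.48 with an adjusted p of 0.011. UF3GT, which adds a xylose to anthocyanins, had 10.54, 10.02 and 10.44 in bru1, against 8.67, 9.34 and 7.25 in Col (1.91 ± 0.33, adjusted p = 0.00085). The Col levels of both genes differ widely between arrays, and the lowest is that of replicate 3, which was also high in heat shock protein genes.

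The anthocyanin glucosyltransferase AT4G14090 differed by 1.73 and AT5MAT, which adds a malonyl group, by 1.58. UGT78D2, the flavonoid 3-glucosyltransferase, differed by 0.63 and CHIL, a helper of chalcone synthase, by 0.89. CHIL passed the test although the groups overlap in its levels, and its call was lost without Col replicate 1 or 3 and without bru1 replicate 1 or 3. BAN, the gene of seed coat tannins, was not shown above background in either genotype. Without Col replicate 3, without bru1 replicate 1 or without bru1 replicate 3, 4 genes of the list were called. With the 6 arrays alone the calls of DFR (adjusted p = 0.138), UF3GT (0.0601), AT4G14090 (0.111) and CHIL (0.179) were lost. In untreated seedlings and at 4 h 0 of the 7 passed the test in limma (0 at an unadjusted p under 0.05), with medians of 0.39 and 0.00. Of all probe sets 10.3% and 13.4% were called in these conditions. Over all probe sets the test of the genotype difference at 52 h called 0.119% against untreated seedlings and 0.576% against 4 h. Tested against untreated seedlings, the genotype difference at 52 h was called for 0 of the 7 in limma (4 at an unadjusted p under 0.05). Against 4 h it was called for 1, AT5MAT, named after its values were seen, which was higher by 1.48 ± 0.32 (adjusted p = 0.043). That call was lost without Col 4 h replicate 1 or 3, bru1 4 h replicate 1 or 3, Col 52 h replicate 1 or bru1 52 h replicate 1 or 3, with renewed quantile normalisation (adjusted p = 0.0534) and with the replicate number as a block (0.0552).

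All 3 measured genes of starch synthesis, of 16 listed, were called higher, beside 5.84% of all probe sets. APL3, a large subunit of ADP-glucose pyrophosphorylase, the first step to starch, had 8.44, 7.62 and 8.99 in bru1, against 6.63, 7.49 and 5.22 in Col (1.90 ± 0.42, adjusted p = 0.0062). APL4, another large subunit, had 6.93, 5.22 and 7.58 in bru1, against 4.58, 5.14 and 4.52 in Col (1.83 ± 0.47, adjusted p = 0.016). SBE2.2, a branching enzyme, differed by 0.43 (adjusted p = 0.0094). For APL3 and APL4 the lowest array was Col replicate 3, and bru1 replicate 2 lay just above Col replicate 2. The number called was 1 without bru1 replicate 3, and 2 without Col replicate 1, Col replicate 3 or bru1 replicate 1. With the 6 arrays alone 0 of the 3 were called, with adjusted p-values of 0.103 for APL3, 0.0994 for APL4 and 0.0855 for SBE2.2 in limma.

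Root hair genes were higher in bru1, with 12 of 15 measured genes of 53 listed called higher (5.84% of all probe sets) and 0 lower (5.66%), and a median of 1.13. Root hairs are outgrowths of single epidermal cells whose walls are rich in extensins and peroxidases. The peroxidase AT3G49960 had levels of 6.52, 6.68 and 6.37 in bru1, against 4.54, 5.50 and 3.94 in Col, a difference of 1.87 ± 0.32 (adjusted p = 0.00077). HRGP1, an extensin, had 8.21, 8.18 and 7.44 in bru1, against 6.19, 6.24 and 6.36 in Col (1.68 ± 0.30, adjusted p = 0.0013). AT4G26010, another peroxidase, had 8.21, 8.29 and 8.36 in bru1, against 6.92, 7.50 and 6.00 in Col (1.48 ± 0.26, adjusted p = 0.00098). Each bru1 array exceeded every Col array in these genes. The cellulase GH9C1 differed by 1.26 and the expansin EXPA18, which loosens walls, by 1.08, while EXPA7 had 0.38 and did not pass (adjusted p = 0.35). In untreated seedlings 9 of the 15 were higher, at 4 h 8, and at 52 h 12, beside 5.24%, 6.45% and 5.84% of all probe sets, with medians of 0.84, 0.79 and 1.13. The median at 52 h was 1.49 without Col replicate 2 and 0.91 without Col replicate 3. The number called higher was 9 without bru1 replicate 1 and 10 without Col replicate 1. With the 6 arrays alone the calls of AT5G04960 and AT1G34510, both of this list, were lost (adjusted p = 0.134 and 0.0583). That of AT5G04960 was also lost without Col replicate 1 or 3 or bru1 replicate 1. HRGP1, AT3G54580 and AT3G28550 of this list lie in runs of neighbouring genes that were higher in bru1.

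Genes of other root tissue went both ways. Of 8 measured genes of 16 listed, 1 was higher (5.84% of all probe sets) and 3 were lower (5.66%), with a median of -0.33. The peroxidase AT3G01190 was lower, at 7.20, 7.89 and 7.58 in bru1, against 8.79, 8.72 and 8.45 in Col (-1.09 ± 0.17, adjusted p = 0.00035). The peroxidase AT4G30170 and the wall enzyme XTH20 were lower, with -0.58 and -0.67, and the peroxidase AT5G17820 was higher, with 0.66. Without Col replicate 2 or without bru1 replicate 1, 1 gene was called lower, and without Col replicate 3 or bru1 replicate 3 AT5G17820 was not called. AT4G30170, XTH20 and AT5G17820 were not called with the 6 arrays alone (adjusted p = 0.153, 0.142 and 0.122). Class III peroxidases are secreted enzymes that act on cell walls, and some also stand on the root lists. The 54 measured of 72 listed split into 9 higher (5.84% of all probe sets) and 8 lower (5.66%), with a median of 0.01.

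Among genes with a probe set of their own and arrays that do not overlap, the largest fall was that of AT4G22490, a lipid-transfer-type protein, at 4.02, 4.23 and 4.55 in bru1, against 8.75, 8.25 and 8.88 in Col. Its measured difference of -4.36 ± 0.17 (adjusted p = 9.1e-11) is a lower bound on the size, since bru1 was not shown above background. AT5G33370, a GDSL lipase related to cutin synthase, had 3.99, 4.22 and 4.59 in bru1, against 6.35, 6.83 and 6.45 in Col (-2.28 ± 0.18, adjusted p = 3.2e-07), with bru1 again not shown above background. AT5G45670, a GDSL esterase/lipase, had 5.88, 6.54 and 6.55 in bru1, against 7.57, 7.60 and 7.35 in Col (-1.18 ± 0.19, adjusted p = 0.00043). These are the 3 measured genes of 36 on a list of epidermis and cuticle genes. All were called lower at 52 h (5.66% of all probe sets), with a median of -2.28. The median was -0.82 in untreated seedlings and 0.01 at 4 h. The median is the value of AT5G33370 each time, for which bru1 was not shown above background in any of the 3 conditions, nor Col at 4 h. At 4 h AT5G45670 was called higher in limma, with 0.69 (adjusted p = 0.021), and AT4G22490 lower, with -1.14 (adjusted p = 0.00029). At 52 h the groups were apart in each gene.

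Genes of the mitochondrial stress response were lower in bru1 at 52 h, with 5 of 10 measured genes of 17 listed called lower (5.66% of all probe sets), 0 higher, and a median of -0.83. In untreated seedlings 1 was higher (5.24% of all probe sets) and 0 lower (5.1%), with a median of -0.19. At 4 h 4 were higher (6.45% of all probe sets) and 0 lower (6.96%), with a median of 0.60. This response is a nuclear programme set off by failing mitochondria. AT2G04050, a MATE efflux transporter, had levels of 8.17, 6.41 and 4.94 in bru1, against 9.46, 9.20 and 10.53 in Col, a difference of -3.22 ± 0.51 (adjusted p = 0.00039). AT1G21520 had 5.38, 4.59 and 4.47 in bru1, against 5.94, 6.21 and 6.92 in Col (-1.54 ± 0.23, adjusted p = 0.00026). AT2G41730 differed by -1.19, the N-acetyltransferase-like gene AT2G32020 by -1.03 and the MATE transporter AT2G04070 by -0.64. AT2G21640, also called UPOX, had means of 8.30 in bru1 and 8.85 in Col, with an adjusted p of 0.33. The list's median level was 7.23, 6.88 and 5.60 in bru1, against 7.41, 7.05 and 8.46 in Col, so bru1 replicate 3 and Col replicate 3 set the ends. Without Col replicate 3 or without bru1 replicate 3, 3 genes were called lower, AT2G41730 and AT2G04070 no longer among them. With the 6 arrays alone 4 of the 5 calls were lost, those of AT2G04050 (adjusted p = 0.0501), AT2G41730 (0.255), AT2G32020 (0.068) and AT2G04070 (0.0856), and with array weights that of AT2G41730 (0.0925).

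Defence genes went both ways, with 3 higher (5.84% of all probe sets) and 5 lower (5.66%) of 23 measured and 31 listed, and a median of -0.13. Without bru1 replicate 1, 3 were called lower. PDF1.4 (adjusted p = 0.0618) and AT4G12490 (0.195) were not called with the 6 arrays alone. The defensin PDF2.1 was higher, at 7.27, 7.27 and 8.18 in bru1, against 6.41, 6.25 and 5.99 in Col (1.36 ± 0.21, adjusted p = 0.00029), as were OSM34, an osmotin-like protein (1.20), and the chitinase AT2G43590 (1.14). The defensin PDF1.4 was lower, at 7.79, 8.31 and 6.42 in bru1, against 9.61, 8.98 and 10.78 in Col (-2.28 ± 0.42, adjusted p = 0.0015). The defensin-like AT4G22212 had 6.03, 6.25 and 6.92 in bru1, against 8.83, 8.90 and 8.04 in Col (-2.19 ± 0.25, adjusted p = 1.5e-05). The thionin THI2.2, a small antimicrobial protein, had 7.94, 9.20 and 8.28 in bru1, against 9.38, 9.16 and 9.66 in Col. Its difference was -0.92 (adjusted p = 0.018), and the groups overlap. THI2.2 was called higher in bru1 in untreated seedlings, with 1.10 (adjusted p = 0.0062), and at 4 h, with 0.84 (adjusted p = 0.027).

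Among the other genes of large change, AT2G33850 had levels of 4.10, 4.53 and 4.68 in bru1, against 8.82, 8.70 and 8.24 in Col, a difference of -4.15 ± 0.23 (adjusted p = 9.5e-09). The peroxidases AT5G64120 and AT5G39580 were lower, the first at 5.61, 5.82 and 6.46 in bru1, against 8.85, 8.42 and 9.56 in Col (-2.99 ± 0.37, adjusted p = 3.2e-05) and the other by -2.01. AT2G18190, an AAA-type ATPase, had 5.82, 4.77 and 4.78 in bru1, against 7.82, 6.74 and 8.57 in Col (-2.59 ± 0.32, adjusted p = 3.3e-05). AT1G17960, which encodes a threonyl-tRNA synthetase, had 5.87, 5.57 and 5.60 in bru1, against 7.65, 7.10 and 8.14 in Col (-1.95 ± 0.21, adjusted p = 6.9e-06). In these genes the groups did not overlap. AT1G06100, a fatty acid desaturase-like gene, differed by -2.16, the subtilase SBT4.12 by -2.01, AT1G52200 by -2.26, AT4G39675 by -2.13 and AT3G15357 by -1.85. On the higher side, AT3G15650 differed by 2.16 and AT5G22460 by 1.97, and AT3G26960 and AT3G27210 by 2.14 and 1.95. These last 4 and the genes above complete the 15 largest rises and 15 largest falls among genes with a probe set of their own whose arrays do not overlap. AT3G15650 and AT3G26960 were not called with the 6 arrays alone (adjusted p = 0.107 and 0.0994).

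When the genes were placed in chromosomal order, higher genes lay side by side. Genes with a mean over all arrays of at least 5 were ordered along the RefSeq loci, 8199 in all, and the log2 difference at 52 h, held within ±1 and less 0.3, was summed along them. Runs of at least 8 genes whose sum reached 3 were kept. This rule was set after the values were seen and gives a description with no test. The plot of differences in gene order shows the result. It found 9 runs, 9 higher in bru1 and 0 lower, on chromosomes 2, 3 and 4. They hold 246 genes, of which 237 had a positive difference. Of the 246 genes 190 were called higher (77.2%) and 0 lower, against 455 higher (5.72%) and 654 lower among the ordered genes outside. The runs were picked by these same differences, so the contrast of inside and outside follows from the rule and is no support. The 1 gene inside with an unadjusted p under 0.05 on the lower side had no adjusted call in limma. The median difference was 0.76 inside and -0.03 outside.

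**Figure D3:**
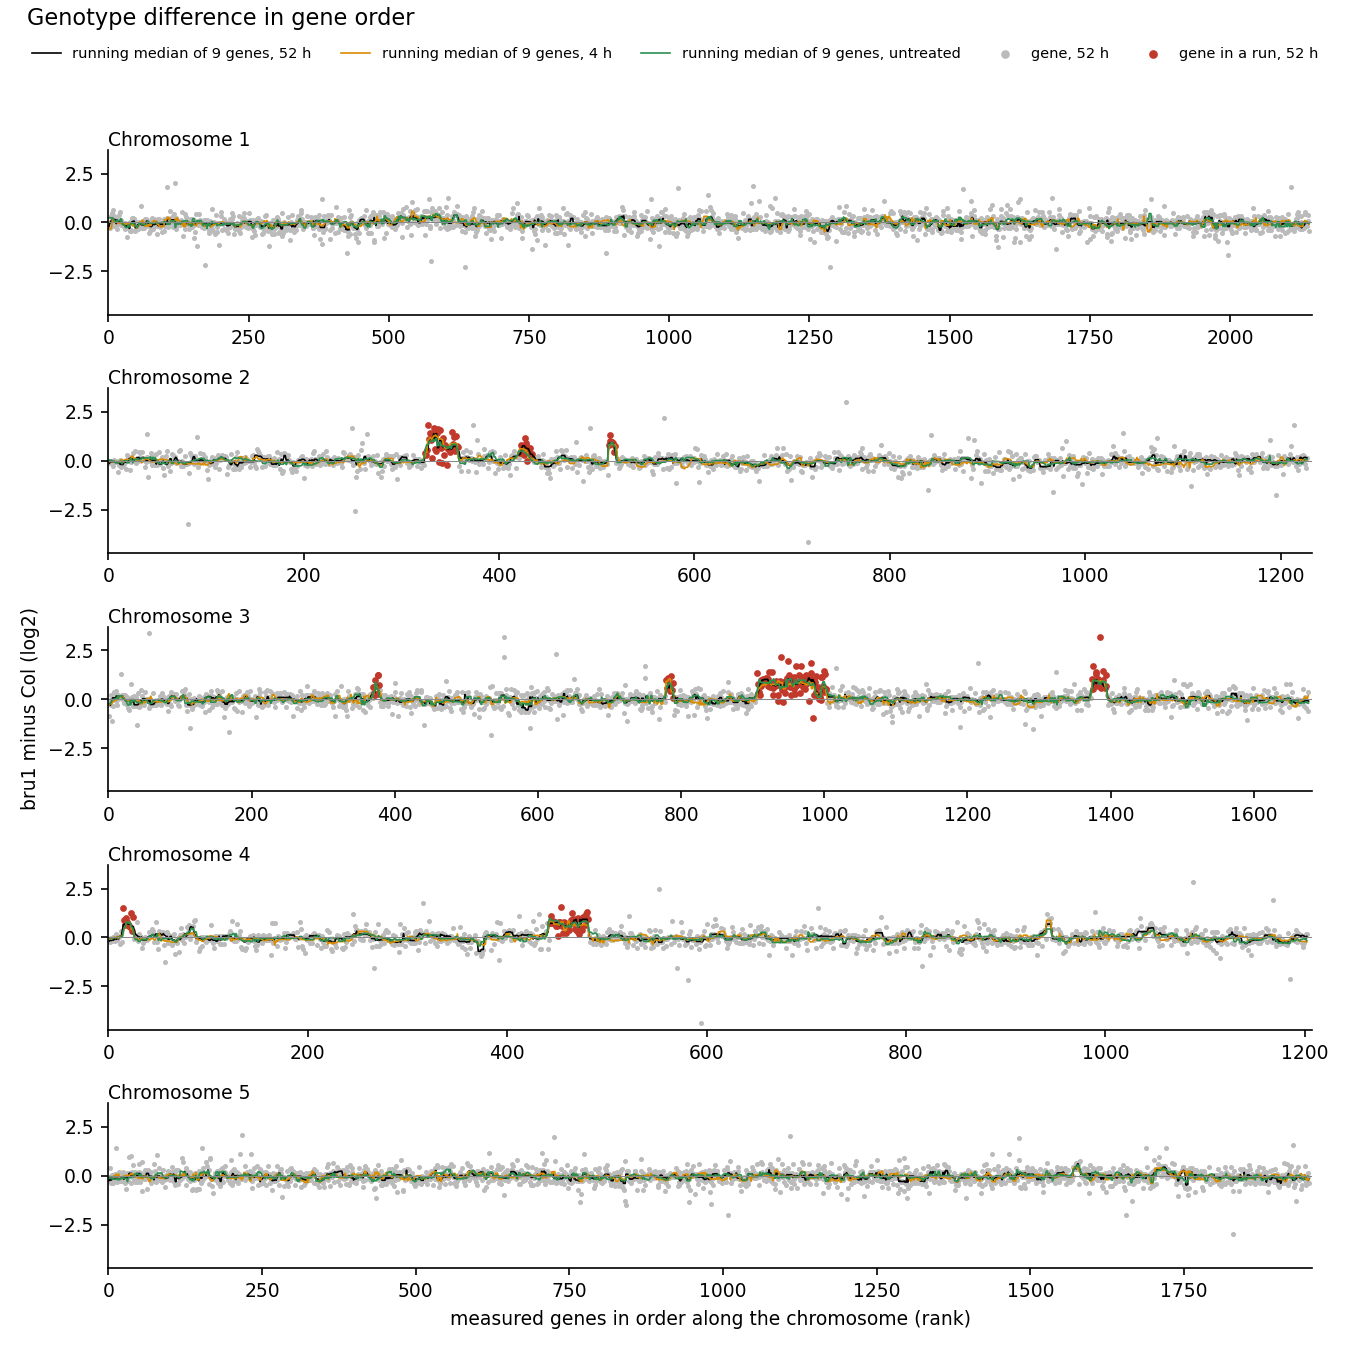
Log2 difference, bru1 minus Col, at 52 h for 8199 genes by rank along each chromosome (grey points, red inside the 9 runs), with running medians of 9 genes at 52 h, at 4 h and in untreated seedlings. The 3 lines rise together at the red points, where the median at 52 h is 0.76, against -0.03 elsewhere. The red points were picked by their differences at 52 h.

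The longest run, AT3G26210 to AT3G29075 on chromosome 3, held 98 genes, 75 of them called higher, with a median of 0.80 and quartiles of 0.53 and 1.05. The run AT4G17260 to AT4G18070 on chromosome 4 held 39 genes, 31 higher, with a median of 0.73. The run AT2G20515 to AT2G21185 on chromosome 2 held 35 genes, 25 higher, with a median of 0.72. In the run AT3G54580 to AT3G55080 all 21 genes were called higher, with a median of 0.79. The other runs had 8 to 14 genes, namely AT2G23700 to AT2G24180 (14 genes, 8 higher), AT2G26580 to AT2G26810 (8, 7), AT3G10930 to AT3G11250 (9, 5), AT3G22290 to AT3G22550 (11, 8) and AT4G00670 to AT4G00990 (11, 10). The run medians ran from 0.63 to 0.92, or 1.55-fold to 1.89-fold. The 16 genes next to each run, 8 on each side, had medians of -0.11 to 0.14, with 0 to 2 called higher. The rule ends a run where the differences fall, so low values beside it follow from the rule.

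The runs held genes of unlike function. PIA1, a protein phosphatase gene in the run AT2G20515 to AT2G21185, had 11.12, 10.98 and 11.52 in bru1, against 9.29, 9.81 and 9.05 in Col (1.82 ± 0.19, adjusted p = 5.3e-06). AT3G27400, a pectate lyase gene in the longest run, had 7.59, 7.80 and 8.40 in bru1, against 6.10, 6.70 and 5.94 in Col (1.69 ± 0.20, adjusted p = 2.7e-05). AT3G28220 had the lowest difference of the longest run, at -0.99 with an adjusted p of 0.086. Of the 15 genes with the largest rises at 52 h 3 lie in runs, namely AT3G54940, AT3G26960 and AT3G27210, and of the 15 largest falls 0 do. Of the 145 ordered genes higher by at least 2-fold, 69 lie in a run, and of all higher calls among ordered genes 29.5% do, while the runs hold 3% of the ordered genes. Since high differences picked the runs, these shares follow in part from the rule.

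The same runs were higher in bru1 at the other conditions, in arrays the rule had not used. Called higher were 193 of the 246 genes in untreated seedlings, 191 at 4 h and 190 at 52 h, with 1, 1 and 0 lower, and 155 were higher in all 3 conditions. The run medians ran from 0.39 to 0.95 in untreated seedlings, from 0.52 to 0.97 at 4 h and from 0.63 to 0.92 at 52 h. The rule applied to the untreated arrays alone gave 8 runs, 7 with ends at identical genes, and applied to the 4 h arrays alone it gave 8, 4 with identical ends. In both, the run from AT2G23700 was the one not found. Relative to the Col mean of the same condition, the run medians of single arrays ran from 0.27 to 1.05 in bru1 and from -0.13 to 0.15 in Col. Every one of the 9 bru1 arrays lay above every one of the 9 Col arrays in each run. The Col values lie near 0 because their own mean was subtracted. The 52 h arrays picked the runs, so for them the separation follows in part from the rule. For the difference at 52 h against the other conditions, limma called 0 genes of the runs. Over all probe sets it called 0.119% against untreated seedlings and 0.576% against 4 h, so 0 among 246 genes does not show unchanged runs. At an unadjusted p under 0.05, 26 of the 246 genes differed against untreated seedlings and 51 against 4 h. Of all 22746 probe sets 2079 and 3226 did. DNA copy number was not measured on these arrays.

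**Figure D4:**
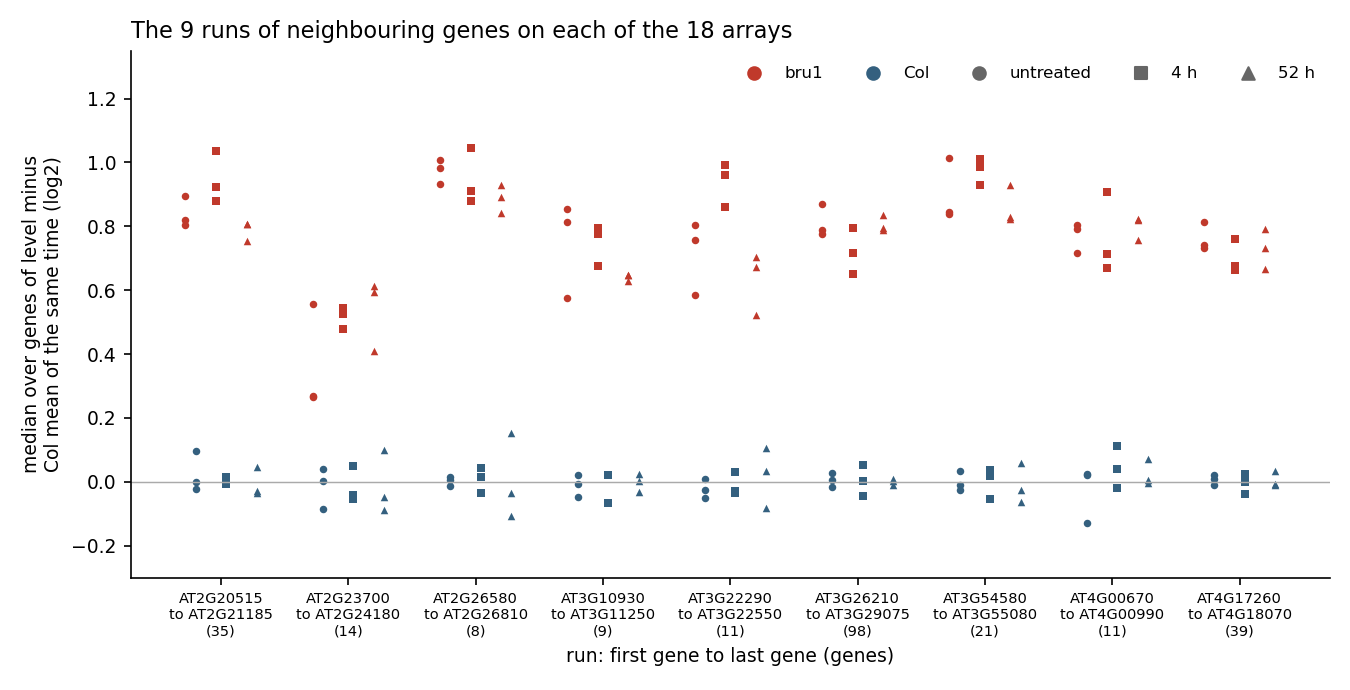
Median over the genes of each of the 9 runs of the log2 level minus the Col mean of the same condition, 1 point per array (bru1 red, Col blue, symbols for untreated, 4 h and 52 h; number of genes in brackets). The bru1 arrays lie between 0.27 and 1.05 and the Col arrays between -0.13 and 0.15. Col lies near 0 because its own mean was subtracted, and the 52 h arrays picked the runs.

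Genes of the plastid genome were in part higher in bru1 at 52 h, with 8 of 69 measured genes of 129 called higher (5.84% of all probe sets) and 0 lower (5.66%), and a median of 0.20. In untreated seedlings 7 were higher (5.24% of all probe sets) and 0 lower (5.1%), with a median of 0.14. At 4 h 2 were higher (6.45% of all probe sets) and 13 lower (6.96%), with a median of -0.05. The plastid gene ndhJ, a subunit of the NADH dehydrogenase-like complex, had 9.93, 10.00 and 9.90 in bru1, against 8.59, 8.67 and 8.25 in Col (1.44 ± 0.25, adjusted p = 0.00097). Its neighbour in the complex, ndhK, had 9.47, 9.34 and 9.44 in bru1, against 8.08, 8.19 and 7.78 in Col (1.40 ± 0.24, adjusted p = 0.0009). The ATP synthase gene atpA had 11.42, 11.57 and 11.14 in bru1, against 10.22, 9.65 and 10.12 in Col (1.38 ± 0.31, adjusted p = 0.0068). Others called were psaI, psbK, rps4, clpP and rpl16, with 0.74, 0.71, 0.64, 0.58 and 0.57, and with the 6 arrays alone psaI and psbK were not called (adjusted p = 0.0522 and 0.0592). The 25S ribosomal RNA control gave 12.31, 12.14 and 12.08 in bru1, against 12.17, 12.15 and 12.48 in Col. The 16 measured genes of the mitochondrial genome, of 22, had 0 calls in limma (0 unadjusted), beside 11.5% of all probe sets, and a median of -0.15.

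Few genes of DNA maintenance could be read. LIG4, the ligase of non-homologous end joining, was higher at 52 h, at 7.21, 7.25 and 7.13 in bru1, against 6.41, 6.20 and 6.67 in Col (0.77 ± 0.11, adjusted p = 0.00011), and differed by 0.76 in untreated seedlings and 0.87 at 4 h. Of 3 measured repair genes of 33 listed it was the one called, beside 5.84% of all probe sets higher and 5.66% lower. The same shares stand beside the replication, mitotic and hormone response counts that follow, each of few genes. Of 3 measured replication genes of 33, PRL, which encodes the helicase subunit MCM7, was lower, with -0.38 (adjusted p = 0.04), a call lost without Col replicate 1 or 3 and without bru1 replicate 2 or 3. Of 2 measured mitotic genes of 21, the kinase AUR2 was lower, with -0.57 (adjusted p = 0.049), a call lost without Col replicate 1 or 2 and without bru1 replicate 1 or 2, and AUR1 was at 0.01. Pseudogenes include relatives of transposons and are kept silent in most tissue. Of 989 measured, 8 were higher (5.84% of all probe sets) and 5 lower (5.66%), with a median of -0.01. Among the 989, 846 were not shown above background in either genotype, so the low counts say little about silencing. AT2G04460 differed by 1.19, a call lost without Col replicate 3 or bru1 replicate 1, and AT3G43640 by 0.99. Of 8 measured auxin and cytokinin response genes of 25, GH3.3, which conjugates auxin, was lower, with -0.70 (adjusted p = 0.024), and 0 were higher. Its call was lost without Col replicate 1 and without bru1 replicate 1 or 2. With the 6 arrays alone the calls of PRL (adjusted p = 0.135), AUR2 (0.229), AT2G04460 (0.108) and GH3.3 (0.0991) were lost. The clock gene GI and the glucosinolate gene BCAT4, the only members of their lists measured, differed by 0.40 and -0.79 and did not pass.

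Whether a difference at 52 h differed from that in another condition was tested directly. Of the 52 h calls, 1136 were also called with the same sign in untreated seedlings (43.4% of the 52 h calls and 48.3% of those in untreated seedlings, where 10.3% of probe sets were called, 5.24% higher and 5.1% lower), and 4 with the opposite sign. At 4 h, 1060 were called with the same sign (40.5% of the 52 h calls and 34.8% of the 4 h calls, where 13.4% were called, 6.45% higher and 6.96% lower), and 744 in all 3 conditions. The genotype difference at 52 h differed from that in untreated seedlings for 27 probe sets (0.119%), 4 higher (0.0176%) and 23 lower (0.101%), and from that at 4 h for 131 (0.576%), 46 higher (0.202%) and 85 lower (0.374%). At an unadjusted p under 0.05 there were 2079 and 3226. These counts depend on single arrays. The 27 became 142 without Col 52 h replicate 2 and 8 without Col 52 h replicate 1, and 10 to 13 without Col untreated replicate 1 or 2 or any 1 of the bru1 untreated replicates. The 131 became 544 without Col 52 h replicate 2, 409 without Col 4 h replicate 2 and 499 without bru1 4 h replicate 2, and 67 to 82 without Col 4 h replicate 1 or 3, bru1 4 h replicate 1 or 3, or Col 52 h replicate 1.

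Among genes with a probe set of their own, the largest increase over untreated seedlings was that of AT3G02480, the LEA-type gene. Its genotype difference was 1.18 in untreated seedlings, 1.76 at 4 h and 3.39 at 52 h, and that at 52 h exceeded that in untreated seedlings by 2.21 ± 0.34 (adjusted p = 0.011). The LEA gene AT4G36600 gave 0.11, 1.19 and 1.29, an excess of 1.18 ± 0.15 (adjusted p = 0.00092) over untreated seedlings. These are measured values, since Col was not shown above background at 4 h (3.86) and at 52 h (3.96). Among the same genes the decrease was deepest for AT3G05600, an epoxide hydrolase, with 1.06, 0.27 and -1.66, a difference of -2.72 ± 0.29 (adjusted p = 0.00028), and for AT2G18190, with 0.13, 0.45 and -2.59, a difference of -2.72 ± 0.45. AT4G22490 gave -2.11, -1.14 and -4.36, again measured values, since bru1 was not shown above background in untreated seedlings (4.38) and at 52 h (4.27). The thionin AT1G66100 gave 1.79, 1.26 and 0.03, so the genotype difference present in untreated seedlings was not called at 52 h. The calls of AT4G36600, AT3G05600 and AT4G22490 were kept under every alternative run. That of AT3G02480 was lost without Col 52 h replicate 1, that of AT2G18190 without that array, bru1 52 h replicate 2, Col untreated replicate 1 or 2 or any bru1 untreated replicate, and that of AT1G66100 without Col 52 h replicate 1, bru1 52 h replicate 1, Col untreated replicate 1 or 2 or bru1 untreated replicate 2 or 3.

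Among genes with a probe set of their own, the largest decrease against 4 h was that of AT2G04050, whose genotype difference was -0.60 in untreated seedlings, 0.91 at 4 h and -3.22 at 52 h, a difference of -4.13 ± 0.72 (adjusted p = 0.0095) between 52 h and 4 h. STZ, a zinc finger repressor, gave -1.20, 1.66 and -1.56, a difference of -3.22 ± 0.56 (adjusted p = 0.0098). At 4 h its levels were 8.67, 7.95 and 9.34 in bru1, against 6.64, 8.25 and 6.10 in Col, so the groups overlap there. Tested against untreated seedlings, its genotype difference at 52 h was not called (adjusted p = 0.91 in limma). AT2G21640 gave -0.55 at 52 h, against 2.23 at 4 h. The plastid genes psbD and ndhG are of photosystem II and the NADH dehydrogenase-like complex. Against 4 h, their genotype difference was higher by 2.50 ± 0.44 and 1.73 ± 0.30 (adjusted p = 0.01 and 0.0096 in limma). It was -2.03 and -1.07 at 4 h, and 0.46 and 0.66 at 52 h. Their Col means were 10.33 and 6.93 at 4 h, against 8.16 and 5.56 at 52 h. The Col arrays of psbD at 4 h varied, with 10.82, 9.23 and 10.93. At 52 h itself these 2 genes did not pass the test. The calls against 4 h of the 5 genes of this paragraph were kept under every alternative in which they were tested.

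**Figure D5:**
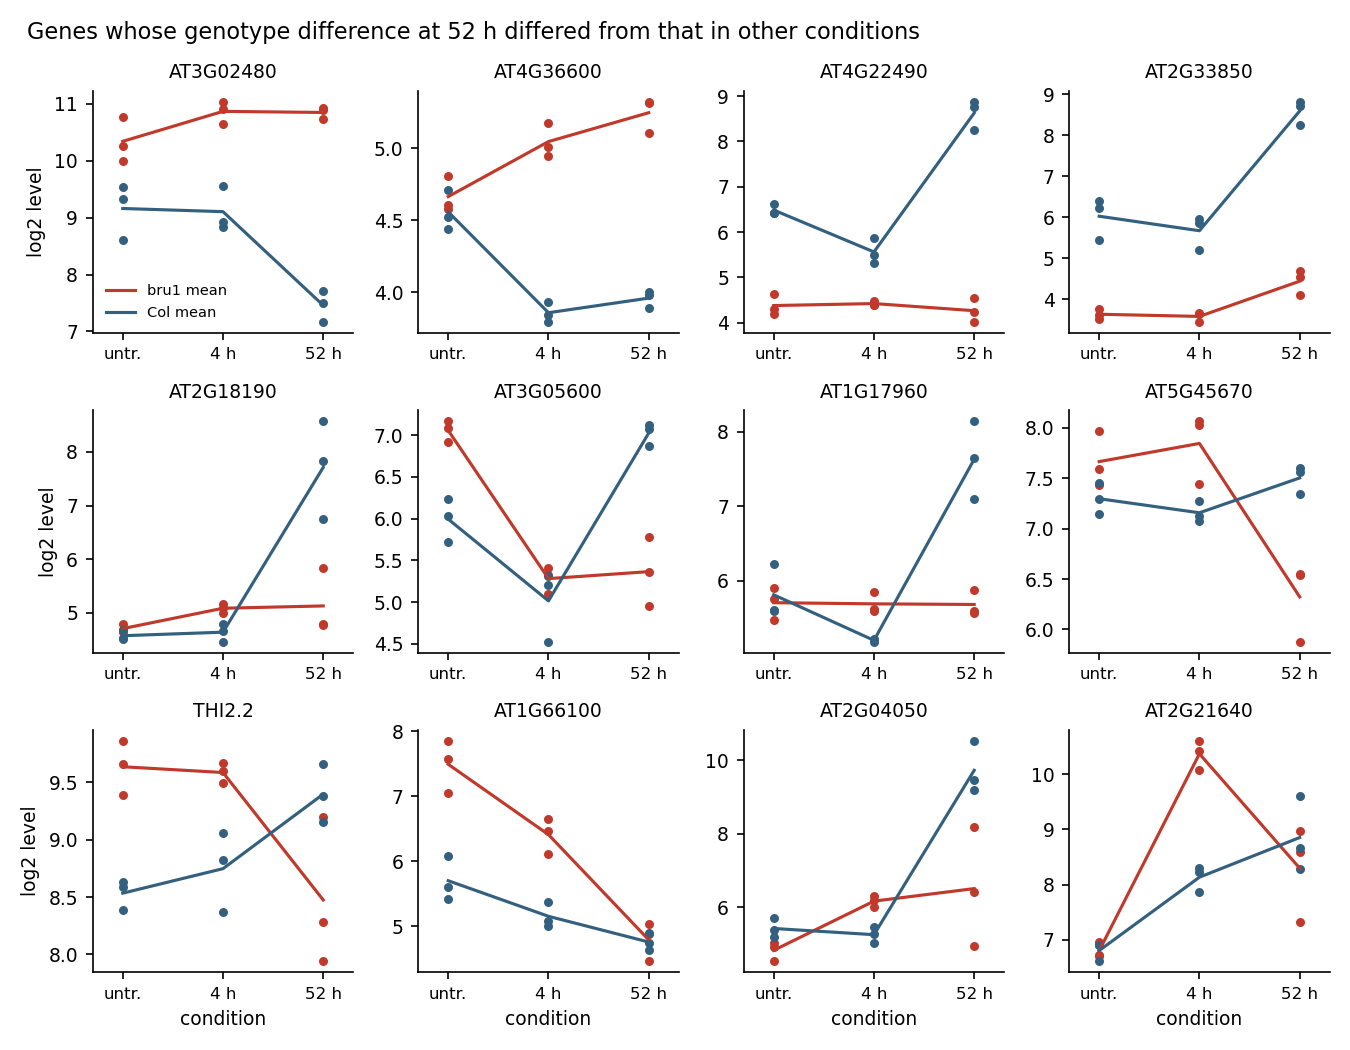
Log2 level in untreated seedlings, at 4 h and at 52 h for bru1 (red) and Col (blue), 1 point per array with lines through the group means, for 12 genes whose genotype difference at 52 h differed from that in another condition. The difference of AT3G02480 is 3.39 at 52 h, against 1.18 in untreated seedlings, and that of AT2G04050 is -3.22 at 52 h, against 0.91 at 4 h.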

How the data were processed

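RNA of whole seedlings was biotin-labelled and hybridised to ATH1 arrays, per the labels' protocols. The deposited values are log2 expression per probe set. Per the submitters' processing notes the authors used RMA (version and settings not given in the sources used here), and no further scaling was applied. RMA evens out the distributions of the arrays, which hides any change in the RNA content of a seedling.

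All 18 arrays entered 1 limma 3.58.1 model under R 4.3.3 with a mean for each of 6 groups (12 residual degrees of freedom). The tests were bru1 minus Col at 52 h, and its difference from that in untreated seedlings and at 4 h, with Benjamini-Hochberg adjustment over 22746 probe sets and a threshold of 0.05. Errors beside differences are standard errors of the model. The 3 replicates a group limit the precision. A group mean at or under 4.39, the highest lower quartile of any array, was taken as not shown above background. The model was tested on simulated data with known changes. Exact tests used scipy 1.17.1, figures matplotlib 3.10.9.

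Of the probe sets 13513 (59.4%) had 1 gene in the table given, 503 had several and 8730 are unnamed here. They stand for 13355 genes, and where a gene had several probe sets (147 genes) that with the highest mean was read. RefSeq TAIR10.1 gave symbols and gene order only. Named are up to 15 genes each way whose 3 arrays of both groups do not overlap, up to 8 each way for the differences between conditions, all measured heat genes and up to 5 called members of other lists, and members named beyond these were chosen after their values were seen. The members and lists were chosen with earlier results of these data known. Vascular and seed maturation lists had 0 genes with a probe set of their own. Alternatives were another normalisation, a filter, weights, variance settings, 6 arrays only, a replicate block and each array left out.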

Additional observations from a re-analysis of the deposited data

Results flagged for a closer look

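Genes are given here because the difference between bru1 and Col at 52 h was itself tested against that in another condition and passed. All values are log2 differences of the genotype differences, and the limma test was adjusted over all probe sets.

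Against untreated seedlings, the genotype difference was higher at 52 h by 2.21 for AT3G02480 and by 1.18 for AT4G36600. It was lower, with -2.72 for AT3G05600, -2.72 for AT2G18190, -2.25 for AT4G22490, -2.03 for THI2.2 (AT5G36910), -1.84 for AT1G17960, -1.76 for AT2G33850, -1.76 for AT1G66100 and -1.55 for AT5G45670. In AT4G36600 Col at 52 h, in AT4G22490 bru1 at 52 h and in untreated seedlings, and in AT2G33850 bru1 in untreated seedlings were not shown above background, so these 3 values are as measured and not exact. Of these 10 genes 3 kept the call under every alternative in which they were tested. AT4G36600 is among these 3, and the filter on mean level left it out.

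Against 4 h, it was higher at 52 h by 2.50 for the photosystem II gene psbD, 2.12 for AT3G58550, 1.98 for OSM34, 1.83 for the pseudogene AT2G04460, 1.73 for ndhG, 1.66 for the chitinase AT2G43590, 1.63 for AT3G02480 and 1.49 for AT5G43520. It was lower, with -4.13 for the MATE transporter AT2G04050, -3.22 for AT4G22490, -3.22 for STZ, -3.04 for AT2G18190, -2.81 for ICL, -2.79 for AT2G21640, -2.63 for AT2G41730 and -2.44 for AT1G17960. In AT4G22490 bru1 at 52 h and in AT5G43520 bru1 at 52 h and 4 h were not shown above background, so these 2 values are as measured and not exact. The genotype difference of AT5G43520 was negative at both times, -0.46 at 52 h and -1.95 at 4 h. Its means were 4.30 and 4.24 in bru1, against 4.76 and 6.18 in Col, at 52 h and 4 h. The flavonoid gene AT5MAT (AT3G29590), higher at 52 h by 1.48, was added after its values were seen. Of these 17 genes 9 kept the call under every alternative in which they were tested. AT5G43520 is among these 9, and the filter on mean level left it out.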

How the results depend on the processing

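At 52 h, 2615 probe sets were called, against 1001 with the 6 arrays at 52 h alone (574 higher, 427 lower), 8462 with array weights, 1464 among probe sets with 1 gene (fewer tested) and 478 at 2-fold or more, and 1549 to 3428 when single arrays were left out. The weights were unequal, 6.28 for Col 52 h replicate 1 against 0.326 to 2.76 for the other arrays. For the difference from untreated seedlings, 27 probe sets were called, 1113 with array weights and 8 to 142 without single arrays. For the difference from 4 h, 131 were called, 2808 with array weights, 71 among probe sets with 1 gene and 67 to 544 without single arrays. The cause of these changes was not tested, apart from the smaller numbers of probe sets or arrays. A filter on mean level gave 2547, renewed quantile normalisation 2629, median centring 2650 (59.0% higher, against 50.8%) and trended robust variances 2508. Of 71 named genes called at 52 h, 42 kept the call under every alternative in which they were tested, 29 lost it under some and 0 changed sign. Genes under the filter on mean level were not tested in it. The number called higher in the 9 runs was 150 to 217, an alternative added after seeing the data. With the replicate number as a block, 2333, 21 and 94 probe sets were called. The same-numbered arrays at 52 h had correlations of deviations of -0.0329, -0.489 and -0.505. With other numbers, bru1 replicate 2 and Col replicate 3 gave 0.439, and bru1 replicate 3 and Col replicate 2 gave 0.551. Deviations from a mean of 3 arrays sum to 0, so these values cannot settle whether samples were paired. Medians over lists moved beyond the spread in 6 of 224 values, among them LEA proteins (0.63), seed reserve genes (1.88) and class III peroxidases (-0.18, against 0.01) with the filter.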
